A study of Mus musculus with 12 samples.

Results

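The question was whether losing Tgfbr2 in smooth muscle changed gene expression by the same amount in mouse aortas with the Fbn1 C1039G mutation as in aortas with normal Fbn1. For each gene the departure from additivity was computed as the knockout minus control difference in Fbn1 mutant aortas, less the same difference in Fbn1 wild-type aortas, on the log2 scale. A departure of 0 means that the 2 effects add. A negative one means that the mutant knockout lay below the level that the separate effects sum to, and a positive one that it lay above. All 12 arrays of the series entered, 14944 of 19938 genes were bright enough to be tested, and 221 of them departed at an adjusted p under 0.05.

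The arrays, 3 in each of 4 groups, read total RNA from ascending aortas taken at an age of 6 weeks. Fbn1 mutant knockouts were Fbn1C1039G/+ and were given tamoxifen, 1 mg a day for 5 days, starting at 4 weeks of age, while Fbn1 mutant controls had the same genotype and received corn oil. Wild-type knockouts and wild-type controls had normal Fbn1 and the same 2 treatments. Every group, controls included, carried Myh11-CreERT2 and Tgfbr2f/f, so that tamoxifen and receptor loss cannot be told apart, and the Myh11 promoter drives the Cre in smooth muscle and not in the other cells of the wall. Whether a group's 3 arrays stand for 3 separate animals is not in the labels, so each p-value reflects only how far these samples spread. Array medians lay between 301 and 334 in intensity and log2 values correlated at 0.995 to 0.997 within groups and at 0.991 to 0.996 across them, so that the number of arrays limits the precision. All 7 smooth muscle markers examined were above the brightness limit, with summed intensities within 95184 to 97857 in every array.

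TGF-beta binds a receptor of which Tgfbr2 encodes the type II chain, and the activated receptor phosphorylates SMAD proteins that enter the nucleus and raise matrix genes such as collagens and elastin. Fibrillin-1, the product of Fbn1, builds the microfibrils that carry elastin and hold latent TGF-beta in the matrix, and the C1039G allele is used in mice as a model of Marfan syndrome, in which the ascending aorta widens. A departure from additivity asks of each gene whether the difference between knockout and control depended on the Fbn1 genotype. The state of the microfibrils was not measured.

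Tgfbr2 itself was read by 1 probe set. The log2 levels of Tgfbr2 were 12.05, 12.07 and 11.98 in the Fbn1 mutant knockouts, 12.04, 11.98 and 11.95 in the Fbn1 mutant controls, 11.88, 11.95 and 11.79 in the wild-type knockouts and 11.96, 11.96 and 11.94 in the wild-type controls. Knockout and control arrays overlapped in both genotypes, and the wild-type knockouts included the lowest array of all. The knockout minus control difference was 0.04 in the Fbn1 mutant and -0.08 in the wild-type, with exact two-sided permutation p-values of 0.3 and 0.2 where 0.1 is the smallest that 3 arrays against 3 allow, and the departure was 0.12 ± 0.07 (adjusted p = 0.419). Where its probes lie relative to the floxed part was not analysed here, so the probe set does not check the labels. The titles name Tgfbr2 for every knockout, while 1 other label field names Tgfbr3 or Tgfbr4 for the knockouts numbered 2 and 3 in both genotypes. "Knockout" is used as the name that the titles give.

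Departures were mostly negative. Of the 14944 genes 1.48% departed, 161 negatively (1.08%) and 60 positively (0.401%), and the median departure of all genes tested was 0.03. Of the 221 departures 139 had a size of 0.5 or more, 19 positive and 120 negative, and all 20 with a size of 1 or more were negative. Without adjustment 2463 genes had p under 0.05. The last gene called was Fap, at -0.63 with an adjusted p of 0.0497, and the first one not called was Col4a6, at -0.45 with 0.0505. The total moved by over 1.5 times when wild-type knockout 1 (107 calls), wild-type knockout 3 (109), mutant control 2 (118), mutant knockout 2 (128) or mutant knockout 1 (142) was left out. The split depended on the scaling, since centring each array on its median left 156 negative and 27 positive calls. In the plot of the knockout effects in both genotypes the negative departures lie below the line of equal effects and the positive ones above it.

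**Figure D1:**
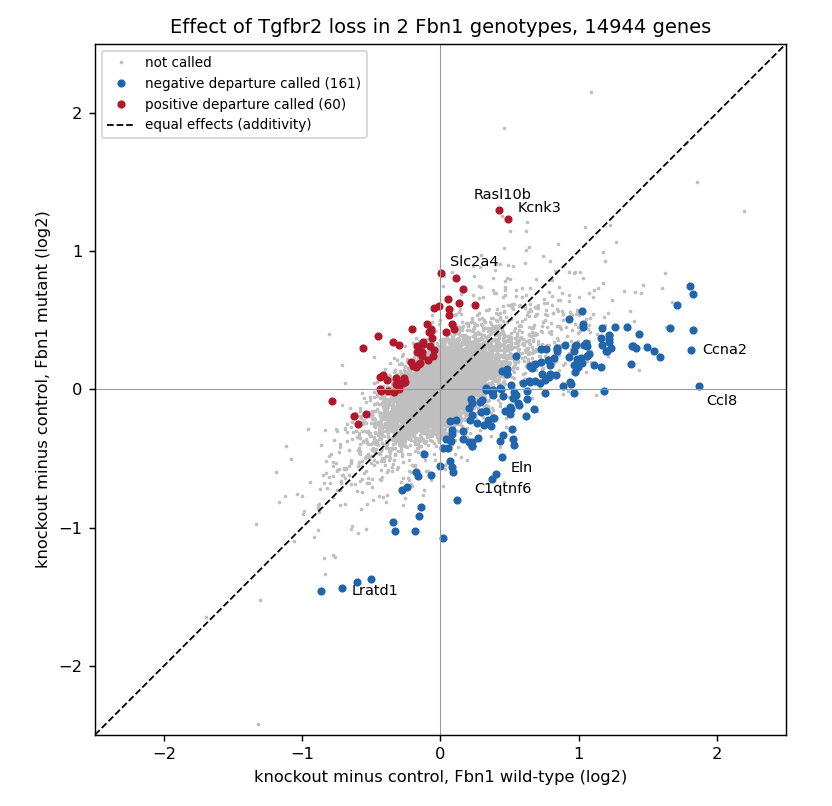
Each point is 1 of 14944 genes. The vertical axis is the knockout minus control difference in the Fbn1 mutant and the horizontal axis that in the wild-type, both in log2, and the dashed line marks equal effects. The 161 negative departures lie to the lower right of the line, up to a wild-type effect of 1.87 with a mutant effect of 0.02 for Ccl8, and the 60 positive ones to its upper left.

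Each departure was then traced to the knockout effects behind it. The knockout effect was called in 2008 genes in the Fbn1 mutant (13.4%) and in 2814 in the wild-type (18.8%). Of the 221 departing genes, 57 had a called knockout effect in the mutant alone, 107 in the wild-type alone, 42 in both with the same sign, 15 in both with opposite signs and 0 in neither. The mutation effect was called in 890 genes among knockouts (5.96%) and in 970 among controls (6.49%). Of the departing genes it was called in 98 among knockouts alone, in 88 among controls alone, in 6 in both with the same sign, in 18 in both with opposite signs and in 11 in neither. These classes use the same values as the departure and are a description of it.

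Which group stood out was read from the group means, as the group farthest from the median of the other 3. Among negative departures this was the wild-type knockout in 68 genes, the wild-type control in 53, the mutant knockout in 21 and the mutant control in 19. Among positive departures it was the mutant knockout in 19, the mutant control in 18, the wild-type control in 14 and the wild-type knockout in 9. In 199 of the 221 genes all 3 arrays of that group lay beyond the other 9 arrays, against 3723 of all 14944 genes for their own farthest group (24.91%). The 221 genes were picked by a test on these same values, which favours groups that stand apart, so the higher share is no separate result. Over all genes tested the farthest group was the mutant knockout in 23.9%, the mutant control in 26.23%, the wild-type knockout in 22.81% and the wild-type control in 27.07%. Of the 161 negative departures the same groups led 13.04%, 11.8%, 42.24% and 32.92%. Of the 60 positive ones the mutant knockout led 31.67% and the wild-type control 23.33%, so that some shares lie near those of all genes. Over all genes tested, the 3 arrays of a group lay beyond the other 9 in 6.98% for the mutant knockouts, 5.71% for the mutant controls, 7.12% for the wild-type knockouts and 9.32% for the wild-type controls. The sign of the departure fixes on which side a group that stands apart can lie. For the 68 genes led by the wild-type knockout, the median difference from the wild-type control was 0.31 in the mutant knockout, 0.22 in the mutant control and 0.82 in the wild-type knockout. For the 53 led by the wild-type control the same medians were 0.59, 0.52 and 0.76. Medians over genes do not show how close the groups lay within a gene. Some of these genes, such as D17H6S56E-5 and Cd84, also had wild-type knockouts above all other arrays.

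**Figure D2:**
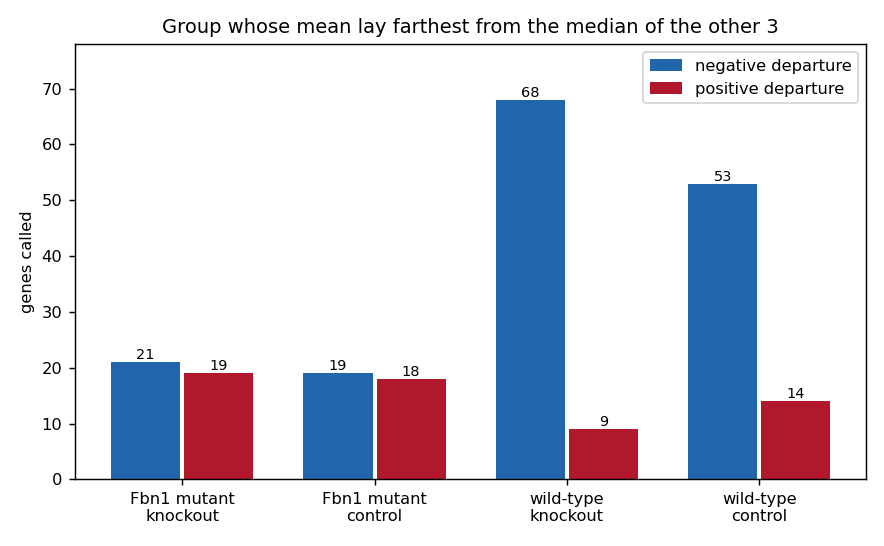
Bars count the departing genes by the group whose mean lay farthest from the median of the other 3 groups, with negative departures in blue and positive ones in red. The wild-type knockout (68) and the wild-type control (53) led most negative departures, while positive ones were spread over all groups, with 19, 18, 9 and 14 in the order of the axis.

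Genes of macrophages and of inflammation were among the departures led by a high wild-type knockout. Of 33 macrophage genes tested 11 departed negatively and 0 positively, against 1.08% and 0.401% of all genes. The median departure of the list was -0.59, against 0.03 for all genes. The list's knockout effects were called upward in 15 members in the mutant and in 30 in the wild-type, with medians of 0.35 and 0.98, and downward in 0 members in either genotype. Over all genes a knockout effect was called in 13.4% in the mutant and in 18.8% in the wild-type. Among knockouts 14 members were lower in the mutant than in the wild-type and 0 were higher. The mutation effect among knockouts was called in 5.96% of all genes. Of the departing members 10 were led by the wild-type knockout and Ms4a7, a membrane protein of macrophages, by the wild-type control. The count was 7 without mutant knockout 3, without wild-type knockout 1 or without wild-type knockout 3. It was also 7 without mutant control 3 and mutant knockout 1 together, 14 with array weights and 13 with the adipocyte level as a covariate.

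Fcgr2b, the inhibitory receptor for immunoglobulin G, had high wild-type knockouts. Levels of Fcgr2b were, in log2, 9.73, 9.80 and 9.78 in the Fbn1 mutant knockouts, 9.32, 9.37 and 9.51 in the Fbn1 mutant controls, 10.43, 10.49 and 10.57 in the wild-type knockouts and 9.27, 9.39 and 9.35 in the wild-type controls. The 3 wild-type knockouts lay above all other arrays, the 3 mutant knockouts above both control groups and the 2 control groups overlapped. Its knockout effect was 0.37 ± 0.06 in the mutant and 1.16 ± 0.06 in the wild-type, and the departure was -0.79 ± 0.09 (adjusted p = 0.00128). Adgre1, an adhesion receptor that marks macrophages, departed by -0.86 ± 0.12 (adjusted p = 0.00415) and Fcgr3, an activating immunoglobulin receptor, by -0.75 ± 0.10 (adjusted p = 0.00309). Fcrls, an Fc receptor-like protein of macrophages and microglia, had the largest departure of the list, at -1.14 ± 0.14 (adjusted p = 0.00255), with knockout effects of 0.69 ± 0.10 in the mutant and 1.83 ± 0.10 in the wild-type. Ctss, a lysosomal protease of antigen-presenting cells, departed by -0.90 ± 0.13 (adjusted p = 0.00581). All 5 were called in every one of the 25 alternatives. Unlike in Fcgr2b, the wild-type controls of Adgre1, Fcgr3, Fcrls and Ctss also lay below all other arrays.

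The summed intensity of 6 macrophage markers, all above the brightness limit, was 6119 to 6597 in the mutant knockouts, 4504 to 5655 in the mutant controls, 8070 to 8921 in the wild-type knockouts and 3870 to 4634 in the wild-type controls. All 6 belong to the list just described and 3 of them, Adgre1, Csf1r and Itgam, departed, so the sums are no separate measure. In RNA of whole tissue more macrophages and more RNA per macrophage cannot be told apart. Fibroblast markers, 5 of 5 above the limit, summed to 31471 to 35665, 32534 to 36063, 38669 to 41381 and 32918 to 36573 in the same order of groups, also highest in the wild-type knockouts, and their part in the results was not tested.

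Of 23 cytokine and chemokine genes 2 departed, Ccl8 and Ccl2, both negatively, against 1.08% of all genes. The list median was -0.20. Ccl8, a monocyte chemokine, had the largest departure of all genes called. On the log2 scale Ccl8 stood at 6.86, 7.07 and 7.19 in the Fbn1 mutant knockouts, 7.03, 7.01 and 7.02 in the Fbn1 mutant controls, 8.58, 8.44 and 9.16 in the wild-type knockouts and 6.67, 6.86 and 7.05 in the wild-type controls. The 3 wild-type knockouts stood more than 1 log2 unit above every other array and the other 3 groups overlapped. The means of those 3 groups, 7.04 in the mutant knockouts, 7.02 in the mutant controls and 6.86 in the wild-type controls, lay below the brightness limit of 7.31. Ccl8 passed that limit only through its wild-type knockouts, so the size of its departure rests on levels near the floor. Its knockout effect was 0.02 ± 0.15 in the mutant and 1.87 ± 0.15 in the wild-type, a departure of -1.85 ± 0.22 (adjusted p = 0.00216) from a level of 8.89 expected under additivity. Ccl2, the main monocyte chemoattractant, departed by -0.80 ± 0.12 (adjusted p = 0.00573). Chosen after their values were seen, the complement genes C4b and Cfb departed by -0.72 ± 0.13 (adjusted p = 0.019) and -0.62 ± 0.11 (adjusted p = 0.0153), the receptor gene Tlr8 of innate immunity by -0.92 ± 0.12 (adjusted p = 0.00256) and Csf1r, the receptor of the macrophage growth factor, by -0.66 ± 0.12 (adjusted p = 0.0184).

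Other departing genes led by the wild-type knockout included Timp1, Meox1, Serpina3n, Cthrc1, Glp1r, Runx1, Lum and Mmp2. Timp1 encodes an inhibitor of matrix metalloproteinases. Timp1 had log2 levels of 11.15, 10.80 and 10.99 in the Fbn1 mutant knockouts, 10.78, 10.48 and 10.84 in the Fbn1 mutant controls, 12.04, 12.09 and 11.74 in the wild-type knockouts and 10.24, 10.62 and 10.38 in the wild-type controls. All 3 wild-type knockouts lay above every other array, and the mutant knockouts overlapped the mutant controls. The knockout effect was 0.28 ± 0.13 in the mutant and 1.54 ± 0.13 in the wild-type, and the departure -1.26 ± 0.18 (adjusted p = 0.00514). Meox1, a homeobox transcription factor, had the smallest adjusted p of all genes. The log2 levels of Meox1 were 8.15, 8.23 and 8.19 in the Fbn1 mutant knockouts, 7.83, 7.93 and 7.88 in the Fbn1 mutant controls, 9.88, 9.83 and 9.79 in the wild-type knockouts and 8.18, 8.44 and 8.38 in the wild-type controls. Its wild-type knockouts stood more than 1 log2 unit above all other arrays, and the departure was -1.19 ± 0.09 (adjusted p = 0.000165). Serpina3n, a serine protease inhibitor, departed by -1.10 ± 0.19 (adjusted p = 0.0126) and Cthrc1, a protein secreted by activated fibroblasts, by -1.06 ± 0.16 (adjusted p = 0.00581). The receptor of the hormone GLP-1, Glp1r, departed by -1.22 ± 0.16 (adjusted p = 0.00361), Runx1, a transcription factor of blood and bone development, by -0.62 ± 0.10 (adjusted p = 0.00743), the collagen-binding proteoglycan lumican, Lum, by -0.63 ± 0.11 (adjusted p = 0.0144), and the gelatinase Mmp2 by -0.60 ± 0.10 (adjusted p = 0.00974). Of 36 matrix proteases and inhibitors 6 departed negatively and 0 positively, against 1.08% and 0.401% of all genes. The list median was -0.10.

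**Figure D3:**
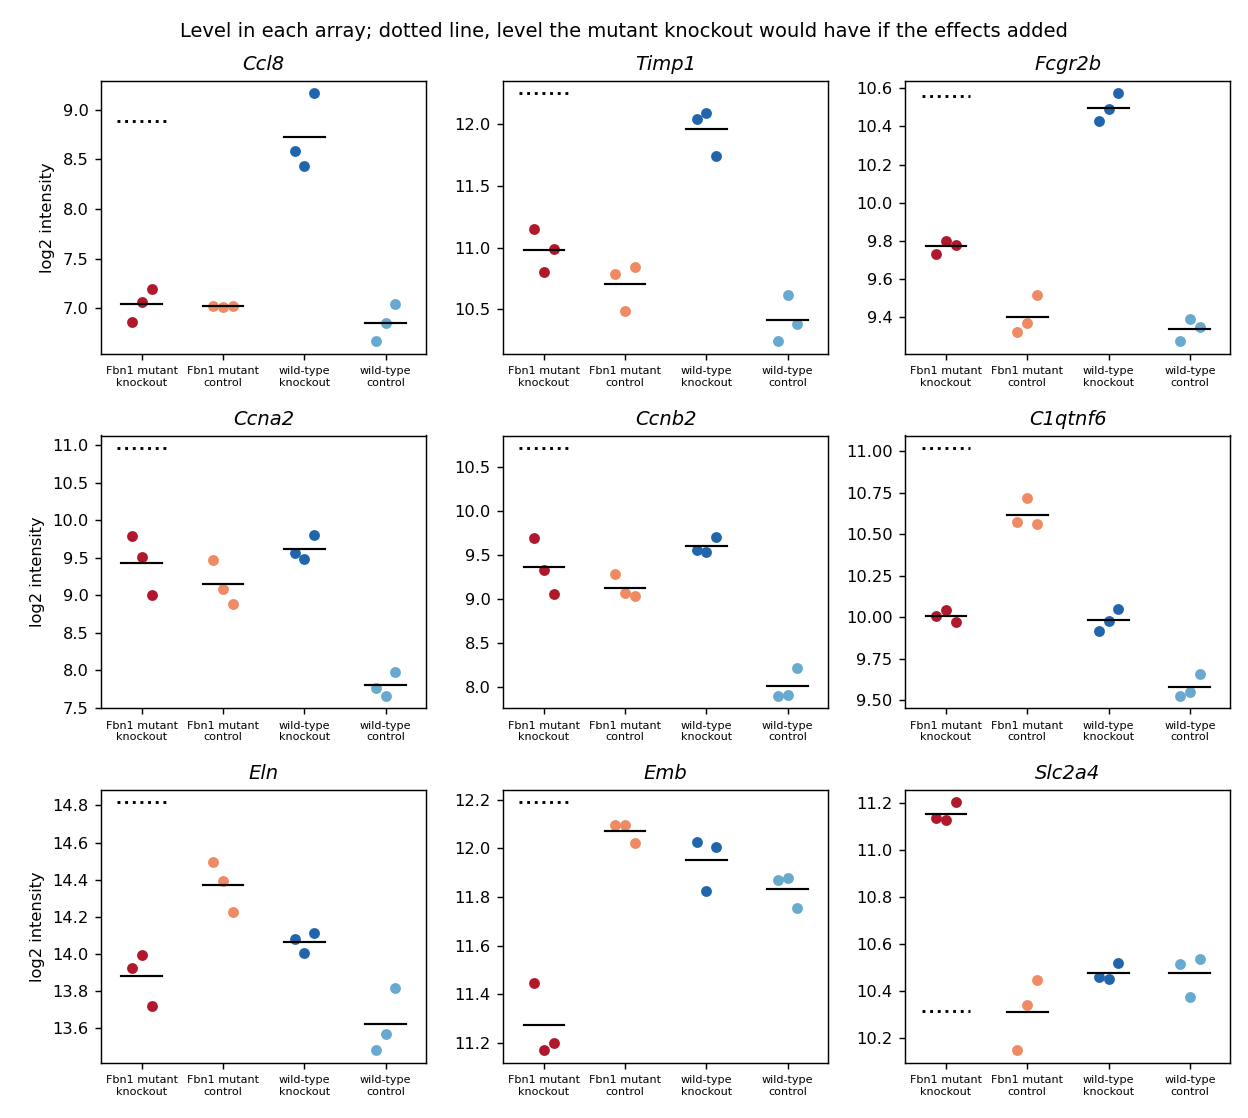
Points are log2 intensities of the 12 arrays for 9 genes, in the order mutant knockout, mutant control, wild-type knockout and wild-type control, with horizontal lines for group means and a dotted line for the level the mutant knockout would have if the effects added. The group that stands out is the wild-type knockout for Ccl8, Timp1 and Fcgr2b, the wild-type control for Ccna2 and Ccnb2, the mutant control for C1qtnf6 and Eln, and the mutant knockout for Emb and Slc2a4.

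Genes of cell division departed with a low wild-type control. Of 33 tested 9 departed negatively and 0 positively, against 1.08% and 0.401% of all genes, with a list median of -0.58. Knockout effects were called upward in 7 members and downward in 1 in the mutant, and upward in 30 and downward in 0 in the wild-type. The mutation effect among controls was called upward in 16 members and downward in 0, and among knockouts upward in 0 and downward in 1. Among all genes tested a knockout effect in either direction was called in 13.4% in the mutant and in 18.8% in the wild-type. The mutation effect was called in 6.49% of them among controls and in 5.96% among knockouts. The mean level of its members was 0.01 to 0.37 in the mutant knockouts, -0.11 to 0.11 in the mutant controls, 0.24 to 0.40 in the wild-type knockouts and -0.48 to -0.43 in the wild-type controls, each relative to the mean of all arrays.

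Ccna2 encodes the cyclin of S phase and of entry into mitosis. Levels of Ccna2 were, in log2, 9.78, 9.51 and 9.01 in the Fbn1 mutant knockouts, 9.47, 9.09 and 8.89 in the Fbn1 mutant controls, 9.57, 9.48 and 9.80 in the wild-type knockouts and 7.76, 7.66 and 7.98 in the wild-type controls. The 3 wild-type controls lay below every other array. The mutant knockouts overlapped both the mutant controls and the wild-type knockouts, while the mutant controls lay just below the wild-type knockouts. Its knockout effect came to 0.28 ± 0.18 in the mutant and 1.81 ± 0.18 in the wild-type, the mutation effect was -0.18 ± 0.18 among knockouts and 1.35 ± 0.18 among controls, and the departure was -1.53 ± 0.26 (adjusted p = 0.012). Ccnb2, a cyclin of mitosis, had the same order. On the log2 scale Ccnb2 stood at 9.69, 9.33 and 9.06 in the Fbn1 mutant knockouts, 9.28, 9.07 and 9.03 in the Fbn1 mutant controls, 9.56, 9.53 and 9.70 in the wild-type knockouts and 7.90, 7.90 and 8.21 in the wild-type controls. Again the wild-type controls lay below all other arrays, and the departure was -1.36 ± 0.19 (adjusted p = 0.00474), called in all 25 alternatives. Mki67, the proliferation marker Ki-67, departed by -1.20 ± 0.23 (adjusted p = 0.0269), the spindle protein gene Prc1 by -1.12 ± 0.23 (adjusted p = 0.0306), the DNA topoisomerase gene Top2a by -1.08 ± 0.23 (adjusted p = 0.0386), the spindle motor gene Kif11 by -0.93 ± 0.18 (adjusted p = 0.0239) and the mitotic kinase gene Plk1 by -0.83 ± 0.16 (adjusted p = 0.0263). Outside the list, D17H6S56E-5 departed by -1.40 ± 0.17 (adjusted p = 0.00216) and Sfrp4, a secreted inhibitor of Wnt signalling, by -1.19 ± 0.25 (adjusted p = 0.0386), both from low wild-type controls. For both genes all 3 of these lay below every other array, though for Sfrp4 the highest of them, 10.187, barely missed the lowest mutant control, 10.188. In both genes the 3 wild-type knockouts also lay above every other array. Sfrp4 lost its call in 12 of the 25 alternatives.

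The count of this list moved with the settings in both directions. It was 14 without mutant control 3 and mutant knockout 1, and 4 with the brightness limit at the median. With linear intensity in place of log2 values only 2 members were called, and Ccna2 had an adjusted p of 0.0756 there. Leaving out 1 array gave 3 calls without wild-type knockout 3, 4 without mutant control 1, wild-type knockout 1 or wild-type control 3, and 5 without mutant knockout 2, mutant control 2 or wild-type control 1. Anln, the cytokinesis protein anillin, was the exception among the departing members. Anln had log2 levels of 10.38, 10.06 and 10.38 in the Fbn1 mutant knockouts, 11.24, 11.03 and 11.10 in the Fbn1 mutant controls, 10.99, 10.95 and 11.09 in the wild-type knockouts and 11.13, 11.16 and 11.18 in the wild-type controls. Its mutant knockouts lay below all other arrays, with knockout effects of -0.85 ± 0.08 in the mutant and -0.14 ± 0.08 in the wild-type and a departure of -0.71 ± 0.12 (adjusted p = 0.012).

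Promoters of cell cycle genes are known to carry CCAAT boxes and an element called CHR, through which they are held down in resting cells and raised in dividing ones. RefSeq starts on GRCm38.p6 gave promoters of 300 bases, 250 before the start and 50 from it on, for 11792 of the tested genes, 26 of the list and 7 of its 9 departing members. The CHR letters TTTGAA, on either strand, were in 7 of the 7, in 65.4% of the list and in 11.9% of all, and CCAAT in 6 of the 7, in 80.8% of the list and in 37.4% of all. Both were in 6 of the 7, in 61.5% of the list and in 4.8% of all, and neither motif contains the other. The motifs were chosen after the values were seen. The 4 departing members that hold both within 120 bases before and 30 after the start are shown, 5′ to 3′ along the gene, with matches to either motif on either strand in capitals (TTTGAA or TTCAAA, and CCAAT or ATTGG). A match describes the letters and shows no binding.
Top2a (chr11:99024160-99024309, minus strand): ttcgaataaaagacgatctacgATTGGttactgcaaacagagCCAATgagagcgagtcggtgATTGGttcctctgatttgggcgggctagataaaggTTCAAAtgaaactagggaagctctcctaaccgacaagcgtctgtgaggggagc
Ccnb2 (chr9:70421525-70421674, minus strand): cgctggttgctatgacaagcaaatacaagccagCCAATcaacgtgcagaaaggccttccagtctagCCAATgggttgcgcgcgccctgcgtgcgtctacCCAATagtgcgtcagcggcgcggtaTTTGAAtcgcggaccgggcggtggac
Kif11 (chr19:37376262-37376411, plus strand): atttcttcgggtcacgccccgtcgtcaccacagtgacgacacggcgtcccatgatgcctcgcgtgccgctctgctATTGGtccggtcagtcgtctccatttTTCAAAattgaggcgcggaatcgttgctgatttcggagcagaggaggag
Prc1 (chr7:80294331-80294480, plus strand): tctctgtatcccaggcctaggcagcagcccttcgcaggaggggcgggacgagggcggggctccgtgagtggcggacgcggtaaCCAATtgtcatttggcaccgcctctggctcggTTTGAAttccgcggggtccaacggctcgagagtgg

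Some departing genes had knockout effects of opposite sign in the 2 genotypes, and others had a high mutant control. Of the 15 genes with called effects of opposite sign, 10 had negative departures, with the knockout lower than control in the mutant and higher than control in the wild-type. C1qtnf6, a secreted protein of the C1q and TNF family, had the largest of these departures. The log2 levels of C1qtnf6 were 10.01, 10.04 and 9.97 in the Fbn1 mutant knockouts, 10.57, 10.72 and 10.56 in the Fbn1 mutant controls, 9.91, 9.98 and 10.05 in the wild-type knockouts and 9.53, 9.55 and 9.65 in the wild-type controls. The mutant controls lay above all other arrays, the wild-type controls below them, and the 2 knockout groups overlapped. Its knockout effect was -0.61 ± 0.06 in the mutant and 0.40 ± 0.06 in the wild-type, a departure of -1.01 ± 0.08 (adjusted p = 0.000181).

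Eln encodes tropoelastin, the core of the elastic fibre. Levels of Eln were, in log2, 13.92, 13.996 and 13.72 in the Fbn1 mutant knockouts, 14.50, 14.39 and 14.23 in the Fbn1 mutant controls, 14.08, 14.005 and 14.11 in the wild-type knockouts and 13.48, 13.57 and 13.81 in the wild-type controls. The mutant controls lay above all other arrays, the mutant knockouts lay below the wild-type knockouts, and the wild-type controls overlapped the mutant knockouts. The knockout effect was -0.49 ± 0.10 in the mutant and 0.44 ± 0.10 in the wild-type, and the departure was -0.94 ± 0.14 (adjusted p = 0.00537). The level expected from additivity, 14.82, was close to the brightest log2 value of an array, which was 14.88 to 14.98, and the part of that limit in the departure was not tested. Opposite effects were also called for Ctsk, a protease that degrades collagen and elastin, with a departure of -0.81 ± 0.07 (adjusted p = 0.000388), for Adamts12, a matrix metalloprotease, with -0.94 ± 0.14 (adjusted p = 0.00632), for Pdgfrl, a protein related to the PDGF receptor, with -0.80 ± 0.08 (adjusted p = 0.000426), for Ppic, the prolyl isomerase cyclophilin C, with -0.79 ± 0.10 (adjusted p = 0.00238), and for Ltbp2, a latent TGF-beta binding protein of microfibrils, with -0.81 ± 0.16 (adjusted p = 0.027). For Ltbp2 the wild-type knockout had the mean farthest from the others, but the group whose 3 arrays stood apart was the mutant knockout, below all others. In Ctsk, Adamts12, Pdgfrl and Ppic the wild-type control was the group farthest from the others, and below them.

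Of 11 fibrillar collagens 3 departed negatively and 0 positively, against 1.08% and 0.401% of all genes, with a list median of -0.18. Col3a1 encodes the chain of type III collagen. On the log2 scale Col3a1 stood at 12.55, 12.63 and 12.58 in the Fbn1 mutant knockouts, 13.10, 12.99 and 12.91 in the Fbn1 mutant controls, 12.61, 12.70 and 12.71 in the wild-type knockouts and 12.27, 12.46 and 12.59 in the wild-type controls. The mutant controls lay above all other arrays, with a knockout effect of -0.41 ± 0.08 in the mutant, one of 0.23 ± 0.08 in the wild-type that was not called, and a departure of -0.64 ± 0.11 (adjusted p = 0.012). Col5a2, of type V collagen, departed by -0.60 ± 0.09 (adjusted p = 0.00581) and Col1a1, of type I collagen, by -0.57 ± 0.10 (adjusted p = 0.0155). Of 24 basement membrane genes 2 departed, both negatively, against 1.08% of all genes, with a list median of -0.14. Col4a5, a chain of type IV collagen, was one of them. Col4a5 had log2 levels of 10.05, 10.04 and 10.05 in the Fbn1 mutant knockouts, 11.05, 10.97 and 10.88 in the Fbn1 mutant controls, 10.34, 10.37 and 10.34 in the wild-type knockouts and 10.46, 10.49 and 10.56 in the wild-type controls. The mutant controls lay above all other arrays and the mutant knockouts below them. Its knockout effect was -0.92 ± 0.05 in the mutant, the wild-type difference of -0.15 ± 0.05 was not called, and the departure was -0.76 ± 0.07 (adjusted p = 0.000426). Col15a1, a collagen next to basement membranes, fell in both genotypes, with knockout effects of -1.39 ± 0.07 in the mutant and -0.60 ± 0.07 in the wild-type and a departure of -0.79 ± 0.10 (adjusted p = 0.00309).

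Tnc, the matricellular protein tenascin C, is a known TGF-beta target. The log2 levels of Tnc were 10.84, 10.43 and 10.76 in the Fbn1 mutant knockouts, 11.48, 11.18 and 11.31 in the Fbn1 mutant controls, 10.06, 10.25 and 10.34 in the wild-type knockouts and 9.58, 9.92 and 10.02 in the wild-type controls. Mutant controls were highest, mutant knockouts next, and both mutant groups lay above both wild-type groups. The departure was -1.02 ± 0.18 (adjusted p = 0.0162). Igfbp2, which binds insulin-like growth factors, departed by -1.10 ± 0.19 (adjusted p = 0.0162), and Vnn1, a pantetheinase, by -0.84 ± 0.13 (adjusted p = 0.00718), both with the mutant control above all other arrays. Of 23 elastic fibre genes 2 departed (Eln and Ltbp2, list median -0.13), of 38 matricellular and proteoglycan genes 3 (Cthrc1, Tnc and Lum, -0.12) and of 21 fibroblast genes 4 (Pdgfrl, Fap, Lum and Col14a1, -0.12), all negatively. Over all genes 1.08% departed negatively.

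Genes of the TGF-beta pathway and its targets were counted apart. Of 29 genes that SMADs induce 7 departed, all negatively, against 1.08% of all genes. The list median was -0.27, and the count was 11 with a variance trend and a robust fit. Of the 7, 6 are described above (Timp1, Tnc, Eln, Ltbp2, Col3a1 and Col1a1). Knockout effects of the list were called upward in 2 and downward in 15 members in the mutant, and upward in 6 and downward in 8 in the wild-type. The shares of all genes with a called knockout effect were 13.4% in the mutant and 18.8% in the wild-type. The seventh, Nox4, encodes an oxidase that makes hydrogen peroxide and was chosen after its values were seen. Its knockout effect was -1.46 ± 0.09 in the mutant and -0.87 ± 0.09 in the wild-type, a departure of -0.59 ± 0.12 (adjusted p = 0.0348) led by low mutant knockouts. Of 32 genes of the TGF-beta pathway, 1 departed negatively, Ltbp2, and 1 positively, Smad9, against 1.08% and 0.401% of all genes, with a list median of 0.07. Smad9, a SMAD of the BMP branch, departed by 0.43 ± 0.09 (adjusted p = 0.0327). Nox4 and Smad9 were each called in only 12 of the 25 alternatives. The difference between the 2 lists was not tested.

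**Figure D4:**
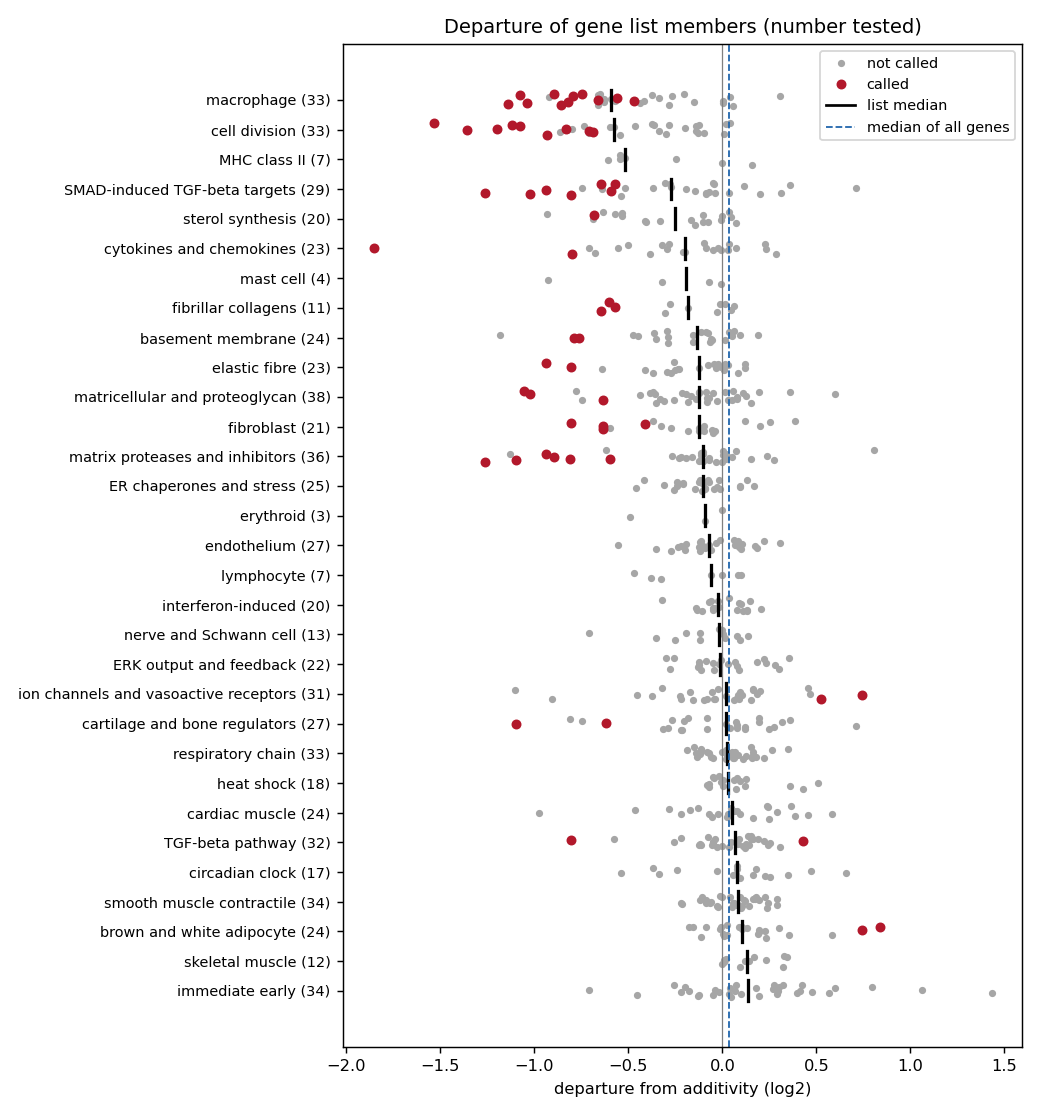
Each row is a gene list with the number of members tested, sorted by the median departure (black bars), each point is a member and red points are called departures. Macrophage (-0.59) and cell division (-0.58) have the lowest medians, and the dashed line is the median of all genes (0.03).

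In a smaller group of negative departures the mutant knockout itself was low. Emb encodes embigin, a membrane partner of lactate and pyruvate carriers. Levels of Emb were, in log2, 11.44, 11.17 and 11.20 in the Fbn1 mutant knockouts, 12.10, 12.10 and 12.02 in the Fbn1 mutant controls, 12.03, 11.82 and 12.005 in the wild-type knockouts and 11.87, 11.88 and 11.75 in the wild-type controls. The mutant knockouts lay below all other arrays and the 3 other groups spanned 11.75 to 12.10. Its knockout effect came to -0.80 ± 0.08 in the mutant and 0.12 ± 0.08 in the wild-type, and the departure -0.92 ± 0.11 (adjusted p = 0.00216). Lratd1 had the lowest mutant knockouts as well, with a fall in both genotypes. On the log2 scale Lratd1 stood at 9.35, 9.29 and 9.45 in the Fbn1 mutant knockouts, 10.87, 10.81 and 10.71 in the Fbn1 mutant controls, 9.75, 9.77 and 9.97 in the wild-type knockouts and 10.47, 10.54 and 10.62 in the wild-type controls. The knockout effect was -1.43 ± 0.07 in the mutant and -0.71 ± 0.07 in the wild-type, a departure of -0.72 ± 0.10 (adjusted p = 0.00415). Rab9b, a GTPase of endosomes, departed by -0.70 ± 0.13 (adjusted p = 0.0239). Knockout effects on Nupr1, a stress-induced nuclear protein chosen after its values were seen, were -0.96 ± 0.06 in the mutant and -0.34 ± 0.06 in the wild-type, with a departure of -0.62 ± 0.08 (adjusted p = 0.00289).

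Positive departures were fewer, with a median of 0.43 over the 60 genes against -0.64 over the 161 negative ones. Slc2a4 encodes GLUT4, the glucose transporter that answers to insulin. Slc2a4 had log2 levels of 11.14, 11.13 and 11.20 in the Fbn1 mutant knockouts, 10.15, 10.34 and 10.45 in the Fbn1 mutant controls, 10.46, 10.45 and 10.52 in the wild-type knockouts and 10.51, 10.38 and 10.54 in the wild-type controls. The mutant knockouts lay above all other arrays, which spanned 10.15 to 10.54. Its knockout effect came to 0.84 ± 0.07 in the mutant and 0.00 ± 0.07 in the wild-type, and the departure was 0.84 ± 0.10 (adjusted p = 0.00216), called in all 25 alternatives. Kcnk3, the resting potassium channel TASK-1, rose in both genotypes. The log2 levels of Kcnk3 were 11.60, 11.64 and 11.13 in the Fbn1 mutant knockouts, 10.15, 10.34 and 10.18 in the Fbn1 mutant controls, 10.32, 10.30 and 10.29 in the wild-type knockouts and 9.72, 9.87 and 9.84 in the wild-type controls. The mutant knockouts were again above all others, and the departure was 0.74 ± 0.15 (adjusted p = 0.0346), with adjusted p up to 0.118 in the alternatives.

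Kcnc4, a voltage-gated potassium channel, had opposite effects. Levels of Kcnc4 were, in log2, 10.26, 10.11 and 10.37 in the Fbn1 mutant knockouts, 9.89, 9.80 and 9.88 in the Fbn1 mutant controls, 10.35, 10.45 and 10.59 in the wild-type knockouts and 10.96, 10.95 and 10.81 in the wild-type controls. Wild-type controls lay above all other arrays and mutant controls below all others, with a knockout effect of 0.39 ± 0.08 in the mutant, one of -0.45 ± 0.08 in the wild-type and a departure of 0.84 ± 0.11 (adjusted p = 0.00309). Fgf1, the acidic fibroblast growth factor, also had called effects of opposite sign, 0.34 ± 0.07 in the mutant and -0.34 ± 0.07 in the wild-type, with a departure of 0.68 ± 0.10 (adjusted p = 0.00537). Rasl10b, a small GTPase of the Ras family, had the largest positive departure among the genes called. On the log2 scale Rasl10b stood at 9.78, 9.82 and 10.34 in the Fbn1 mutant knockouts, 8.75, 8.62 and 8.68 in the Fbn1 mutant controls, 10.05, 10.22 and 10.19 in the wild-type knockouts and 9.93, 9.66 and 9.58 in the wild-type controls. Its mutant controls lay below all other arrays, and the departure was 0.87 ± 0.18 (adjusted p = 0.0386), not called in 13 of the 25 alternatives.

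Other positive departures had a high mutant knockout. These were Gstm7, a glutathione transferase, with 0.70 ± 0.10 (adjusted p = 0.0047), Id4, an inhibitor of helix-loop-helix factors, with 0.61 ± 0.11 (adjusted p = 0.0153), Rbm24, a splicing factor of striated muscle, with 0.63 ± 0.13 (adjusted p = 0.0335), Kcna2, a voltage-gated potassium channel, with 0.56 ± 0.11 (adjusted p = 0.0269), Lgi3, a secreted leucine-rich protein, with 0.57 ± 0.10 (adjusted p = 0.0184), and Kcnj8, the pore of a potassium channel gated by ATP, with 0.53 ± 0.12 (adjusted p = 0.0497). Asb2, part of a ubiquitin ligase of muscle, departed by 0.70 ± 0.10 (adjusted p = 0.00581), with the wild-type controls above all other arrays. Mutant controls were the farthest group, and low, for P2rx6, an ATP-gated channel, with 0.64 ± 0.10 (adjusted p = 0.00632), for Cbs, an enzyme that makes hydrogen sulphide, with 0.60 ± 0.12 (adjusted p = 0.0357), and for Dppa5a, a gene of pluripotent cells, with 0.62 ± 0.11 (adjusted p = 0.0144). The small nuclear RNA Scarna17 departed by 0.86 ± 0.19 (adjusted p = 0.0467). Of 24 adipocyte genes 2 departed positively (Slc2a4 and Kcnk3) and 0 negatively, with a median of 0.10, and of 31 ion channels and vasoactive receptors 2 (Kcnk3 and Kcnj8) and 0, with 0.02. Over all genes 0.401% departed positively.

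Levels of adipocyte, immediate early and cardiac muscle genes are given beside these departures, and their differences between groups were not tested. The mean level of the adipocyte list was 0.05 to 0.47 in the mutant knockouts, -0.40 to 0.28 in the mutant controls, -0.11 to 0.23 in the wild-type knockouts and -0.29 to -0.09 in the wild-type controls. That of immediate early genes, which rise within minutes of handling or stress, was -0.06 to 0.57, -0.29 to -0.05, -0.13 to 0.33 and -0.37 to 0.00 in the same order. With the adipocyte level as a covariate 37 positive departures were called and with the immediate early level 29, against 60 without, while negative ones numbered 157 and 128 against 161. Of 6 adipocyte markers 4 were above the brightness limit, with summed intensities of 2748 to 4076, 1820 to 3808, 2461 to 3283 and 2083 to 2383 in the same order of groups. Cardiac muscle markers, 5 of 5 above it, summed to 11564 to 13734, 5133 to 8316, 10708 to 12306 and 6697 to 8038, and beyond these covariates the part of such tissue in the departures was not tested.

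**Figure D5:**
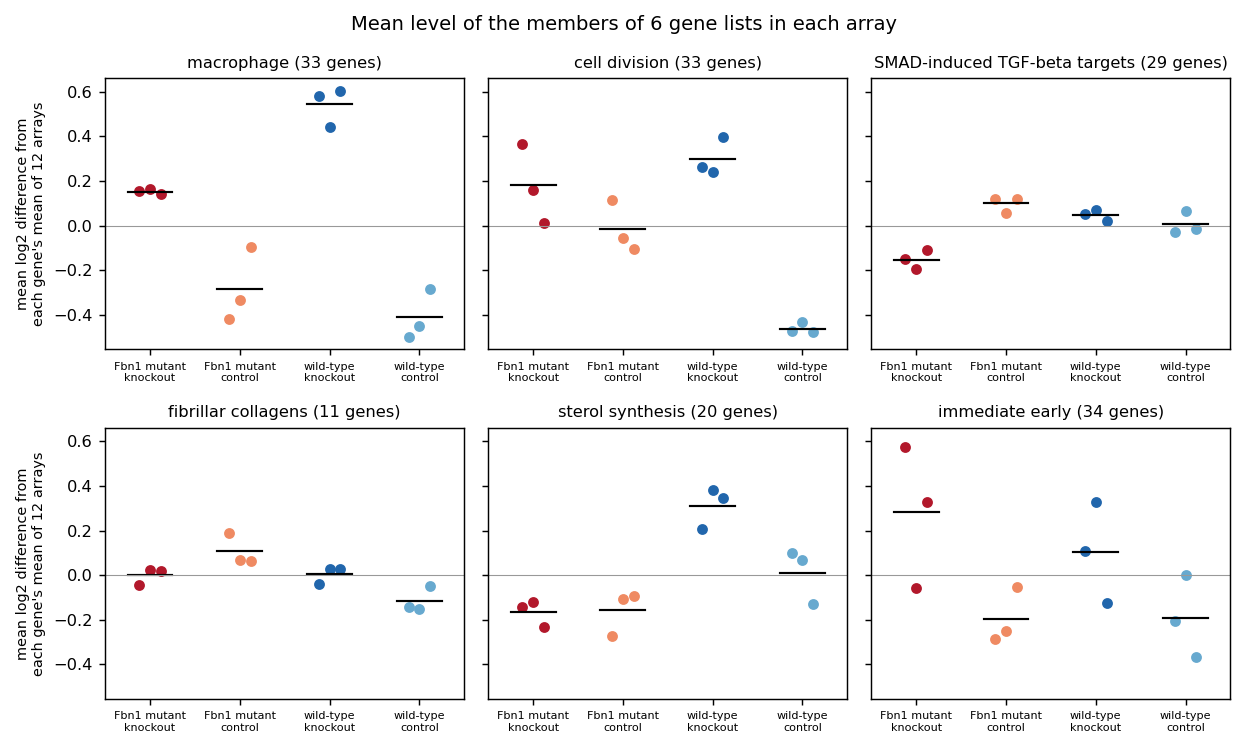
Points are the mean log2 level of the members of 6 gene lists in each array, relative to each gene's mean over the 12 arrays, and lines are group means. Macrophage genes are highest in the wild-type knockouts (0.44 to 0.60), cell division genes lowest in the wild-type controls (-0.48 to -0.43), SMAD-induced targets lowest in the mutant knockouts (-0.19 to -0.11), and immediate early genes spread widely within groups.

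Several lists held no called departure, which for lists of this size is near the 1.48% called over all genes. Of 34 smooth muscle contractile genes limma called 0, with 8 at an unadjusted p under 0.05, against 16.48% of all genes, and a median departure of 0.08. Knockout effects were called downward in 8 members in the mutant and in 11 in the wild-type, and upward in 4 and 2. In either direction they were called in 13.4% of all genes in the mutant and in 18.8% in the wild-type. No departure was called among 27 endothelial genes (1 with an unadjusted p under 0.05, median -0.07), 20 interferon-induced genes (0 and -0.02), 18 heat shock genes (1 and 0.03), 17 circadian clock genes (2 and 0.08) or 24 cardiac muscle genes (4 and 0.05). In all, 48 of the 221 departing genes were on any of the 31 lists, which held 654 of the genes tested.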

How the data were processed

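Total RNA of the ascending aorta of 12 mouse samples in 4 groups of 3 was hybridised to Affymetrix whole-transcript arrays, 1 array a sample. The deposited values are 1 intensity per probe set and array on a linear scale, which the authors normalized with RMA and Partek 6.4, per the submitters' processing notes. Log2 of these intensities was taken here, with no further scaling.

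Of 35556 probe sets 21789 had 1 gene symbol in the platform annotation, 1621 had several and 12146 had none. Each of 19938 genes was read by its brightest probe set, and the 14944 genes with a mean above the 25th percentile (log2 7.31) were tested. A group-means model was fitted with limma 3.58.1 in R 4.3.3, the departure and the 4 simple effects were tested two-sided as contrasts, and p-values were adjusted by Benjamini-Hochberg over all genes tested, with a threshold of 0.05. The procedure was tested on simulated arrays with independent noise and no other group differences, where 200 genes were given a departure in the mutant knockout. Departures of 0.5 were called in 64% and those of 1 in 97%, and 4.17% of the calls were false. Real arrays can differ from this setting. Values after ± are standard errors of the fit, and adjusted p-values are limma's.

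The groups come from the sample titles. Named genes, with exceptions stated, were those called with the 15 largest departures of each sign, the 8 largest with opposite knockout effects, the 6 largest led by each group standing apart, up to 5 of each list by p, and Tgfbr2, leaving out predicted genes, olfactory and vomeronasal receptors and microRNA or nucleolar RNA symbols. The members and lists were chosen with earlier results of these data known. Alternatives covered the filter, the scaling, the probe set rule, the scale, the variance model, array weights, the replicate number, 2 covariates, 1 pair of arrays and each array left out. Replicate numbers were not used to pair the samples.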

Additional observations from a re-analysis of the deposited data

Results flagged for a closer look

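Each departure is a difference between the knockout effects in the 2 Fbn1 genotypes, and 221 genes passed limma's test of that difference with Benjamini-Hochberg adjustment. Values are log2 departures, the mutant effect less the wild-type effect, and no explanation of them was tested.

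Among genes with a high wild-type knockout were Ccl8 (-1.85), Timp1 (-1.26), Glp1r (-1.22), Meox1 (-1.19), Fcrls (-1.14) and Serpina3n (-1.10). For Ccl8 the means of the other groups lay below the brightness limit. For Ltbp2 (-0.81) the wild-type knockout mean was farthest from the others, while the 3 mutant knockouts lay below all other arrays. Low wild-type controls led Ccna2 (-1.53), D17H6S56E-5 (-1.40), Ccnb2 (-1.36), Mki67 (-1.20), Sfrp4 (-1.19), Prc1 (-1.12), Top2a (-1.08), Ms4a7 (-1.07), Adamts12 (-0.94), Ctsk (-0.81), Pdgfrl (-0.80) and Ppic (-0.79). High mutant controls led Igfbp2 (-1.10), C1qtnf6 (-1.01) and Eln (-0.94).

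High mutant knockouts led Slc2a4 (0.84), Kcnk3 (0.74), Gstm7 (0.70), Fgf1 (0.68), Rbm24 (0.63), Id4 (0.61), Lgi3 (0.57) and Kcna2 (0.56). Low mutant controls led Rasl10b (0.87), P2rx6 (0.64), Dppa5a (0.62) and Cbs (0.60). High wild-type controls led Kcnc4 (0.84) and Asb2 (0.70), and low wild-type knockouts led Scarna17 (0.86).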

How the results depend on the processing

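The count of departing genes, 221 with 60 positive and 161 negative, was 469 with array weights, 174 positive and 295 negative. Positive calls numbered 27 with each array centred on its median, 92 on linear intensity, 29 with the immediate early level as a covariate, 37 with the adipocyte level and 32 without mutant control 3 and mutant knockout 1. Leaving out 1 array gave totals of 107 to 202, with 14 to 65 positive and 93 to 148 negative. The total moved by over 1.5 times when 1 of 5 arrays was left out, namely wild-type knockout 1 (107), wild-type knockout 3 (109), mutant control 2 (118), mutant knockout 2 (128) and mutant knockout 1 (142). With the replicate number as a block 199 genes departed, 47 positively and 152 negatively, 163 of them shared with the fit without it. Same-numbered samples correlated at -0.217 to 0.24 in their deviations from group means, 3 of 18 pairs over 0.1. Samples with other numbers correlated at -0.177 to 0.209, 7 of 36 pairs over 0.1. The numbers were therefore not used as pairs, which does not show that the samples were unpaired. In all 12 fits that left out an array 88 genes were called, 11 positive and 77 negative, and in all 25 alternatives 58 were, 6 positive and 52 negative. The sign held for all 221 genes wherever they were tested, except for 1 of 220 with the mean of probe sets. Of the alternatives on 65 named genes, 1379 kept their side of the threshold and 234 lost the call, mostly for genes near it such as Kcnj8, Ms4a7, Msmo1, Fap and Top2a. The cause of these changes was not tested. The number of arrays, 3 a group, limits the precision.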

Other observations

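Genes of sterol synthesis are not described above. Of 20 tested, Msmo1, a sterol oxidase, departed at -0.68 (adjusted p = 0.0497), and Idi1, an isomerase early in the pathway, had a departure of -0.93 that limma did not call (adjusted p = 0.0562). Over the list 9 genes had an unadjusted p under 0.05, against 16.48% of all genes, and the median departure was -0.25. In the wild-type the knockout raised 11 members and lowered 0, in the mutant 0 were called in either direction, and among knockouts 12 were lower in the mutant than in the wild-type. Shares over all genes, in either direction, were 18.8% for the knockout effect in the wild-type and 13.4% in the mutant. For the mutation effect among knockouts the share was 5.96%, and for negative departures 1.08%. Mean list levels were -0.23 to -0.12 in the mutant knockouts, -0.27 to -0.09 in the mutant controls, 0.21 to 0.38 in the wild-type knockouts and -0.13 to 0.10 in the wild-type controls.

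Of 7 genes of MHC class II, which present antigen, limma called 0 departures, 3 had an unadjusted p under 0.05 and the median was -0.51, with 5 knockout effects called upward in the wild-type and 0 in the mutant. Of 34 immediate early genes 0 were called, 5 had an unadjusted p under 0.05 and the median was 0.14. Nr4a1, a nuclear receptor of that list, had a departure of 1.43 with an adjusted p of 0.24. Further lists with 0 calls were ER chaperones and stress (25 tested, 7 with an unadjusted p under 0.05), ERK output (22 and 1), respiratory chain (33 and 3), nerve and Schwann cell (13 and 2), skeletal muscle (12 and 4), lymphocyte (7 and 1), mast cell (4 and 1) and erythroid (3 and 0). Of 27 cartilage and bone regulators 2 were called, Igfbp2 and Runx1, against 1.48% of all genes.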
